A study of Mus musculus with 18 samples.

Results

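The glycolysis enzymes described here are 10 mouse genes: Hk1, Hk2, Gpi1, Pfkl, Pfkp, Aldoa, Pgk1, Eno1, Pkm and Ldha. They were chosen by name, not by a cutoff on any measured value, from 33440 genes with estimated reads in 18 RNA-seq libraries. Earlier results of these data were known when they were chosen. All 10 passed the filter on low counts in both comparisons, in which 16105 and 13624 genes were tested. The study asked which genes lie downstream of IRF3, an innate immune transcription factor, in adipocytes.

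Adipocytes were differentiated in culture from the stromal vascular fraction (SVF) of inguinal white fat (iWAT) of C57BL/6 IRF3-2D mice, which carry a constitutively active Irf3 allele that Cre switches on and which the labels spell IRF-2D. The mice were a few weeks old, and the sources used here differ on whether both sexes were used. Insulin and rosiglitazone, a PPARγ agonist, were in the medium of every culture. On day 6 the cells received AAV-GFP-Cre (FI3OE, n = 3) or AAV-GFP (WT, n = 3), and the experiments were done on day 8. The WT cells therefore carry the same allele unrecombined, and FI3OE cells differ from them by Cre as well as by active IRF3. In the other experiment, RNA bound to GFP-tagged ribosomes was pulled down with an anti-GFP antibody (translating ribosome affinity purification, TRAP) from epididymal white fat (eWAT) of Ad-NuTRAP mice, whose adipocytes carry the tag (WT, n = 6) and of mice that also lack IRF3 in adipocytes (FI3KO, n = 6). All 12 of these C57BL/6 mice ate a high-fat diet (HFD) for 8 weeks at thermoneutrality, and the knockout was made with floxed Irf3 and Adipoq-Cre, which is active in adipocytes. For a longer high-fat feeding the study's methods describe young adult male mice, and neither sex nor age is given for these libraries themselves in the sources used here. The labels call every library a biological replicate without saying whether cultures came from separate mice, so the p-values measure the spread between these libraries.

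Glycolysis converts glucose to pyruvate in the cytosol and yields ATP and NADH. Hexokinases (Hk1, Hk2) trap glucose in the cell as glucose 6-phosphate, Gpi1 isomerises it to fructose 6-phosphate, and phosphofructokinases (Pfkl, Pfkp) commit it to the pathway. Aldolase (Aldoa) splits the sugar, phosphoglycerate kinase (Pgk1) makes ATP, enolase (Eno1) makes phosphoenolpyruvate, pyruvate kinase (Pkm) makes pyruvate and further ATP, and lactate dehydrogenase (Ldha) turns pyruvate to lactate. In adipocytes the pathway also supplies glycerol 3-phosphate for triglycerides and acetyl groups for fatty acid synthesis, and insulin stimulates the entry of glucose through GLUT4. Several of these genes are textbook targets of the hypoxia-inducible factor HIF1.

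On GRCm38, Hk1 lies at chr10:62268855-62379908 (minus strand) and Hk2 at chr6:82725025-82774454 (minus strand). Gpi1 lies at chr7:34201330-34230336 (minus strand), Pfkl at chr10:77986947-78010083 (minus strand) and Pfkp at chr13:6579768-6648777 (minus strand). Aldoa lies at chr7:126795234-126800751 (minus strand), Pgk1 at chrX:106187100-106203699 (plus strand) and Eno1 at chr4:150236721-150248879 (plus strand). Pkm lies at chr9:59656368-59679375 (plus strand) and Ldha at chr7:46841475-46855627 (plus strand). Windows of 300 bases around the gene starts were taken from RefSeq (GRCm38.p6) and matched for 10 of 10 genes. A gene can have several starts, and the windows shown for Ldha and Aldoa lie inside the span given above. The window used for Hk1 does too, 2301 bases from the start of its matched transcript, and it held 5 matches to the core searched for. All windows were searched on both strands for the core of the hypoxia response element, ACGTG or GCGTG, which HIF1 is known to bind. They were searched for a tandem repeat of GAAA with any 2 bases between the copies, of the kind IRF proteins are known to bind. Neighbouring or overlapping matches were each counted. The core was present in 8 of the 10 windows, against 43.8% of all 32851 windows, and the GAAA repeat in 0 of the 10, against 3.44%. The windows were richer in G and C, with 57% to 67.3% against a median of 52.7% over all windows. For 4 members, those with the highest levels in cultured WT cells, which also rose in FI3OE cells, 1 window each is shown. In it Ldha held 7 core matches, Eno1 2, Aldoa 1 and Pkm 0. Over all windows of a gene, the core was in 2 of 2 for Ldha, 3 of 3 for Eno1, 2 of 3 for Aldoa and 1 of 2 for Pkm. Capitals mark the matches on either strand, and the gene's own strand is written 5′ to 3′.
Ldha (chr7:46845554-46845853, plus strand): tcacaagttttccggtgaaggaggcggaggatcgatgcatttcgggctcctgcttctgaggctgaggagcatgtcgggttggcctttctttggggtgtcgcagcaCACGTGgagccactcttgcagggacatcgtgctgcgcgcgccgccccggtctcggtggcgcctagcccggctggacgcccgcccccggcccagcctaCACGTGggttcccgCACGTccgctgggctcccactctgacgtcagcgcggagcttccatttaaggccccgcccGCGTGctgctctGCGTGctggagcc
Eno1 (chr4:150236458-150236757, plus strand): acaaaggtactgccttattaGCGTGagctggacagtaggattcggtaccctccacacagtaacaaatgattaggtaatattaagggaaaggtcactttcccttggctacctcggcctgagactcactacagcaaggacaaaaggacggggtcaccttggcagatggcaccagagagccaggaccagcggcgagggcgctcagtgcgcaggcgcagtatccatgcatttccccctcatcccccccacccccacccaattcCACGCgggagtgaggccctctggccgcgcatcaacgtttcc
Aldoa (chr7:126799205-126799504, minus strand): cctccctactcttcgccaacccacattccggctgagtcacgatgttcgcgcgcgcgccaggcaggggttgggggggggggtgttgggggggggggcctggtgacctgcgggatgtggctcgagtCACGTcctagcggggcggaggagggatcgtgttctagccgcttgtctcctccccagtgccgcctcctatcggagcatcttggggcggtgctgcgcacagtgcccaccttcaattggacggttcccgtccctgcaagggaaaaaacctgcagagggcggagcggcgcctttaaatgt
Pkm (chr9:59656326-59656625, plus strand): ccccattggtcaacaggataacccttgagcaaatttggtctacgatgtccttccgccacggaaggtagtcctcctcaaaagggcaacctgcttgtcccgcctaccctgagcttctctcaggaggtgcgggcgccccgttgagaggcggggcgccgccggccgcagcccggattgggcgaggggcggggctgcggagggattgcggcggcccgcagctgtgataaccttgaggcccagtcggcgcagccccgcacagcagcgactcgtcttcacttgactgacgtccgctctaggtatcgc
A match is only a run of letters in this window, and none of these data measure binding.

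The libraries held 21541334 to 40490283 estimated reads. Values per library are CPM, the reads of a gene relative to the library total, scaled within each experiment by TMM factors, and a gene is called where its edgeR adjusted p is at most 0.05. Irf3 itself was at 92.04, 102 and 91.4 CPM in FI3OE and 57.9, 56.8 and 56.8 CPM in WT cells (log2 fold change 0.73 ± 0.046 SE, edgeR adjusted p = 3.3e-07), with no overlap. In TRAP RNA its lowest, median and highest CPM were 12.5, 15.3 and 19.97 in FI3KO and 16.4, 20.5 and 22.8 in WT (log2 fold change -0.35 ± 0.11 SE, edgeR adjusted p = 0.0198). The groups overlapped, and FI3KO replicates 1 and 4, at 19.97 and 16.83 CPM, lay inside the WT range. With an offset for transcript length the log2 fold change was 0.71, in the other direction (edgeR adjusted p = 0.00181, with 0.00181 to 0.452 over all alternatives). Which exons are deleted is not given in the sources used here, so reads from the rest of the gene can remain, and FI3KO below means the libraries so labelled. TRAP replicates 1 and 2 stood apart from 3 to 6, and no label names the sets. The median chi-square per gene between 2 libraries was 4.9 to 7.07 across the sets in WT and 0.772 to 4.42 within them, and 5.02 to 8.64 across and 1.56 to 5.3 within in FI3KO. WT replicates 1 and 2 were also the closest pair of libraries, with a mean chi-square per gene of 2.54 where counting noise alone gives about 1, against 8.41 or more for other TRAP pairs. Adipocyte markers summed to 49360 to 53640 CPM in FI3KO and 52910 to 59660 in WT TRAP RNA, and to 16100 to 16340 CPM in FI3OE and 16460 to 16570 in WT cultures. Single markers were called both ways, with 6 of 18 adipocyte markers higher and 3 lower in TRAP RNA, where Lep was at 2439 to 4039 CPM in FI3KO and 6662 to 12710 in WT, and 6 higher and 8 lower in the cultures. Of all genes tested, 19.1% were called higher and 18.3% lower in TRAP RNA, and 20.2% and 16.8% in the cultures. The cultures also held fibroblast and preadipocyte markers (18440 to 18720 CPM in FI3OE and 17970 to 18730 in WT, led by Col1a1 and Col3a1) and macrophage markers (2412 to 2466 and 2462 to 2637 CPM). Of 18 macrophage markers there 5 were called higher and 4 lower, beside 20.2% and 16.8% of all genes. Among those lower, Mrc1 was at 227 to 253 CPM in FI3OE and 415 to 446 in WT. Among those higher, Ctss was at 167 to 182 CPM in FI3OE and 127 to 145 in WT. The part of these cell types in the results was not tested. In such bulk RNA, fewer cells of a type and less RNA per cell cannot be told apart.

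In both WT groups Aldoa had the highest level of the 10 enzymes and Hk1 the lowest. Levels of different genes were compared as TPM, a relative abundance that accounts for transcript length. In WT SVF-derived adipocytes the mean levels were 4406 ± 84.5 TPM for Aldoa, 1511 ± 51.7 for Eno1, 1480 ± 12.9 for Ldha and 1449 ± 32.1 for Pkm (SD, n = 3). The ranges of Eno1 and Ldha overlapped, as did those of Ldha and Pkm. Ldha was above Pkm within each WT culture, and the order of these neighbours was not tested. They were followed by 959 ± 44.98 for Gpi1, 788 ± 18.3 for Pgk1, 279.5 ± 21.6 for Pfkl, 75.9 ± 7.81 for Pfkp, 64.5 ± 3.42 for Hk2 and 48.3 ± 1.01 for Hk1. In WT TRAP RNA the mean levels were 3232 ± 664 for Aldoa, 1215 ± 167 for Ldha, 897 ± 56.2 for Eno1, 341 ± 11.6 for Pkm and 211 ± 26.7 for Gpi1 (SD, n = 6). Below these stood 145 ± 3.85 for Pgk1, 102 ± 21.6 for Pfkl, 75.2 ± 7.11 for Hk2, 41.6 ± 3.90 for Pfkp and 9.73 ± 1.05 for Hk1. Only the ranges of Pfkl and Hk2 overlapped among neighbours in TRAP RNA. The order was the same for reads per kilobase without the TPM scaling. The 10 genes together made up 11060 ± 189 TPM in WT cultures and 6267 ± 806 TPM in WT TRAP RNA. These groups differ in depot, culture, diet and RNA fraction, which cannot be told apart, and they are given side by side without a test.

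**Figure D1:**
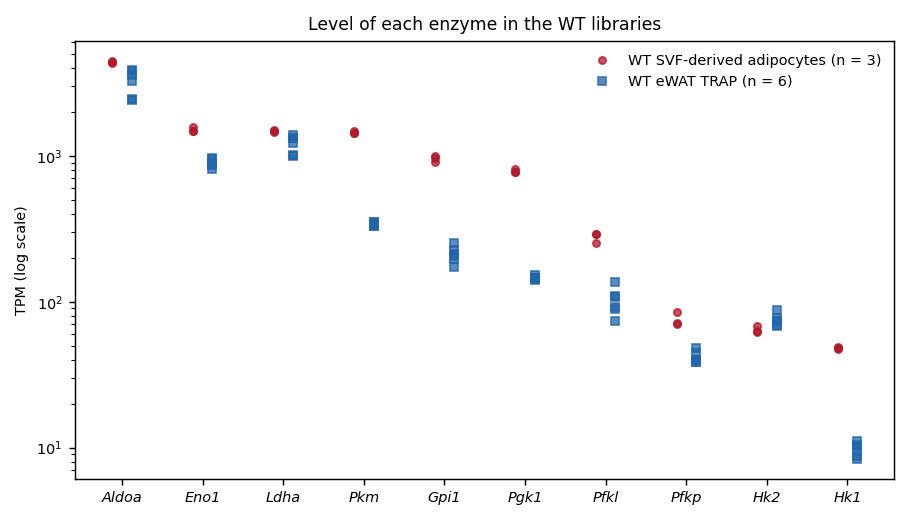
Level in TPM on a log axis of the 10 enzymes in each WT library, with circles for the 3 WT SVF-derived cultures and squares for the 6 WT eWAT TRAP samples. Aldoa is highest and Hk1 lowest in both, and Ldha stands above Eno1 in mean in TRAP RNA (1215 and 897 TPM) but not in the cultures (1480 and 1511 TPM).

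The isozymes of a step differed in their share. Of the hexokinase TPM on Hk1, Hk2 and Hk3, Hk1 held 39.5% ± 1.47 (SD, n = 3) in WT cultures and 11.3% ± 1.41 (SD, n = 6) in WT TRAP RNA. Hk2, the insulin-responsive isozyme, held 52.7% ± 1.02 and 86.5% ± 0.92. Of the phosphofructokinase TPM, the liver-type gene Pfkl held 74.3% ± 1.65 and 63.1% ± 6.17, the platelet-type gene Pfkp 20.2% ± 1.39 and 26.3% ± 2.89, and the muscle-type gene Pfkm 5.53% ± 0.303 and 10.6% ± 4.15. Aldoa held 99.8% of the aldolase TPM and Eno1 99.0% of the enolase TPM in WT cultures, with 99.99% and 99.5% in WT TRAP RNA. Ldha held 91.8% and 91.7% of the lactate dehydrogenase TPM, the rest being Ldhb.

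In FI3OE adipocytes 6 of the 10 enzymes rose and none fell. Hk1, Pfkl, Aldoa, Eno1, Pkm and Ldha were 1.17-fold to 1.49-fold higher than in WT cells, and the 6 were also those whose FI3OE and WT values did not overlap. The 6 of 10 stand beside 20.2% of all genes tested that were called higher, and the 0 of 10 beside 16.8% called lower (37% in either direction). At an unadjusted p under 0.05, 7 members were higher and 0 lower in edgeR, and DESeq2 called 6 higher and 0 lower. Every FI3OE value lay above every WT value in 25.7% of genes and below in 23.8%. No member reached a log2 fold change of 1, the fold cutoff of the study, which 3.62% of genes passed with the adjusted p. At an unadjusted p under 0.05, and in DESeq2, the count past that fold was also 0. The median log2 fold change of the 10 was 0.34, against -0.0047 over all genes tested.

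At the entry of the pathway 1 of the 2 hexokinases rose. Hk1, the widely expressed isozyme bound to mitochondria, was at 85.6, 119 and 90.2 CPM in FI3OE and 69.4, 64.2 and 66.9 CPM in WT cells (log2 fold change 0.55 ± 0.099 SE, edgeR adjusted p = 0.00104). Every FI3OE culture lay above every WT culture, with replicate 2 the highest. Hk2 was at 146, 181 and 145 CPM and 161, 147 and 146 CPM (log2 fold change 0.056 ± 0.077 SE, edgeR adjusted p = 0.616), and the groups overlapped. Hk1 held 47.9% ± 1.81 of the hexokinase TPM in FI3OE cells. Gpi1 overlapped too, at 772, 1093 and 885 CPM in FI3OE and 878, 848 and 892 CPM in WT cells (log2 fold change 0.071 ± 0.094 SE, edgeR adjusted p = 0.593).

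Of the phosphofructokinases 1 of 2 rose. Pfkl was at 307, 438 and 343 CPM in FI3OE and 266, 245 and 263 CPM in WT cells (log2 fold change 0.49 ± 0.10 SE, edgeR adjusted p = 0.00245), with no overlap. Pfkp was at 103, 122 and 104 CPM and 122, 114 and 115 CPM (log2 fold change -0.099 ± 0.061 SE, edgeR adjusted p = 0.237), where FI3OE replicates 1 and 3 lay below the WT range and replicate 2 inside it. Aldoa, the next step, was at 2468, 3002 and 2648 CPM in FI3OE and 2309, 2293 and 2330 CPM in WT cells (log2 fold change 0.23 ± 0.057 SE, edgeR adjusted p = 0.00811). Its difference was the smallest of the 6, and its FI3OE values again lay above the WT values.

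Of the enzymes below the split of the sugar, 3 of 4 rose. Pgk1 was at 713, 1007 and 838 CPM in FI3OE and 730.3, 714 and 770.0 CPM in WT cells (log2 fold change 0.21 ± 0.093 SE, edgeR adjusted p = 0.104), with FI3OE replicate 1 at the foot of the WT range. It passed the edgeR threshold in 2 of 16 alternatives, without FI3OE replicate 1 (0.32, adjusted p = 0.00406) and with no filter (0.22, adjusted p = 0.0254). Eno1 was at 1404, 1877 and 1520 CPM and 1134, 1132 and 1230 CPM (log2 fold change 0.46 ± 0.084 SE, edgeR adjusted p = 0.00129). Pkm was at 1781, 2266 and 1953 CPM in FI3OE and 1318, 1300 and 1408 CPM in WT cells (log2 fold change 0.58 ± 0.07 SE, edgeR adjusted p = 6.28e-05). Ldha was at 1385, 1800 and 1505 CPM and 1113, 1059 and 1157 CPM (log2 fold change 0.49 ± 0.076 SE, edgeR adjusted p = 0.000369). For Eno1, Pkm and Ldha the lowest FI3OE culture was above the highest WT culture. Pkm had the smallest adjusted p of the members.

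**Figure D2:**
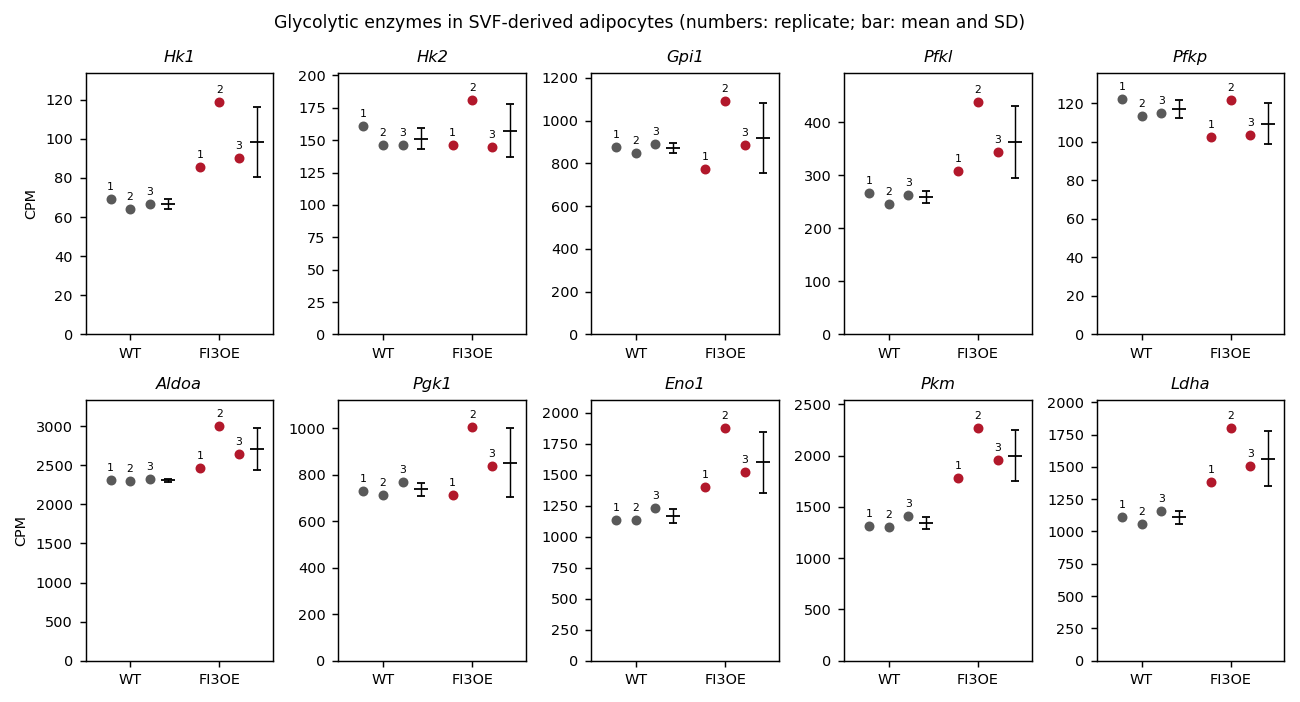
CPM of each of the 10 enzymes in the 3 WT and 3 FI3OE SVF-derived cultures, from 0, with points numbered by replicate and a bar for the mean and SD. The FI3OE points of Hk1, Pfkl, Aldoa, Eno1, Pkm and Ldha all lie above the WT points, and replicate 2 is the highest FI3OE point in all 10 panels.

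One culture stood apart in these genes. FI3OE replicate 2 was the highest FI3OE library for 10 of 10 members, against 35.2% of all genes tested, and for 14 of 15 targets of HIF1 outside glycolysis. Its log2 level over the mean of replicates 1 and 3 had a median of 0.34 over the members, 0.47 over the HIF1 targets and -0.0015 over all genes. Egln3, a prolyl hydroxylase of that list named here after its values were seen, was at 24.3, 75.7 and 29.4 CPM in FI3OE and 43.1, 36.1 and 39.9 CPM in WT cells. Of the same list, Adm was at 224, 243 and 231 CPM and Car9 at 1.01, 1.12 and 1.56 CPM in FI3OE. What set replicate 2 apart was not tested. Without this culture the same 6 members were still higher, at 0.14 for Aldoa (adjusted p = 0.0105) to 0.47 for Pkm on the log2 scale, and Pfkp was lower (-0.19, adjusted p = 0.00848). Log2 fold changes without it were 0.39 for Hk1, 0.33 for Pfkl, 0.32 for Eno1, 0.38 for Ldha and 0.067 for Pgk1, and those of Hk2 and Gpi1 were below 0, at -0.062 and -0.079. With robust dispersion estimates 3 members were called, Aldoa, Pkm and Ldha, while Hk1, Eno1 and Pfkl had adjusted p = 0.0522, 0.056 and 0.0751. In a fit of all 18 libraries Aldoa was not called (adjusted p = 0.423). Robust estimates called 6225 of 16105 genes, and the fit of all 18 libraries 1572 of 17289. Over all alternatives the adjusted p ran from 0.000604 to 0.423 for Aldoa, 3.08e-06 to 0.0522 for Hk1, 1.64e-05 to 0.0751 for Pfkl, 5.69e-06 to 0.056 for Eno1 and 0.00848 to 0.736 for Pfkp, and stayed at or under 0.0422 for Ldha and 0.0104 for Pkm.

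Of the other enzymes of the pathway, 5 of 15 tested rose and 2 fell in FI3OE cells, with a median log2 fold change of 0.12. Over all genes 20.2% were called higher and 16.8% lower, so the share that fell was near that of all genes, and DESeq2 called 5 of these enzymes higher and 0 lower. The counts by edgeR were 3 and 3 with robust dispersion estimates, 1 and 0 in the fit of all 18 libraries, and 5 and 1 without FI3OE replicate 2. In either direction those fits called 6225 of 16105, 1572 of 17289 and 5197 of 16361 of all genes. Gapdh, which makes NADH, was at 4236, 5538 and 4709 CPM in FI3OE and 3410, 3398 and 3555 CPM in WT cells (0.48, adjusted p = 0.000321). Tpi1, which interconverts the triose phosphates, was at 515, 702 and 574 CPM and 451, 445 and 463 CPM (0.40, adjusted p = 0.00348). Pgam1 (0.38, adjusted p = 0.00905), Hk3 (0.44, adjusted p = 0.0015) and Ldhb (0.19, adjusted p = 0.0104) also rose. Adpgk, which phosphorylates glucose with ADP (-0.15, adjusted p = 0.0215), and the muscle enolase Eno3 (-0.37, adjusted p = 0.0407) fell. The calls of Adpgk and Eno3 were lost in 7 and 10 of 16 alternatives, with adjusted p = 0.0548 and 0.103 without FI3OE replicate 2. Not called were Pfkm (0.12, adjusted p = 0.215), Aldoc (0.095, adjusted p = 0.569), Eno2 (0.15, adjusted p = 0.305) and Bpgm (0.08, adjusted p = 0.703).

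Of 9 glucose and lactate transporters tested 0 rose and 4 fell, beside 20.2% and 16.8% of all genes. At an unadjusted p under 0.05, 1 of them was higher in edgeR, and DESeq2 called 0 higher. Slc2a3 (GLUT3) was at 2.87, 5.24 and 4.34 CPM in FI3OE and 16.2, 15.6 and 13.9 CPM in WT cells (-1.86, adjusted p = 4.39e-06). Slc2a4, which encodes GLUT4, was at 132, 140.2 and 145 CPM and 205, 188 and 189 CPM (-0.48, adjusted p = 1.38e-05). In the fit of all 18 libraries, which called 1572 of 17289 genes, 2 transporters fell. Slc2a4 was not called there (adjusted p = 0.0921, the highest over its alternatives). Bsg, the chaperone of the lactate carriers, fell as well (-0.44, adjusted p = 9.03e-05).

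The counts of the further lists stand beside 20.2% of all genes higher and 16.8% lower. Among genes that set fructose 2,6-bisphosphate and so the phosphofructokinase step, 2 of 5 tested rose and 2 fell, among them Pfkfb1 (0.19, adjusted p = 0.0238), Pfkfb2 (-0.21, adjusted p = 0.0202) and Pfkfb3 (-0.52, adjusted p = 0.000609). Without FI3OE replicate 2, 0 rose and 1 fell by edgeR, with Pfkfb1 at adjusted p = 0.0983 and Pfkfb2 at 0.0617, and in the fit of all 18 libraries 0 rose and 0 fell. These 2 fits called 5197 of 16361 and 1572 of 17289 genes. Over all alternatives the adjusted p ran from 0.00693 to 0.453 for Pfkfb1 and from 0.0154 to 0.279 for Pfkfb2. For the entry of pyruvate into mitochondria 5 of 14 rose and 3 fell. Both subunits of the mitochondrial pyruvate carrier rose, Mpc1 (0.55, adjusted p = 2.33e-06) and Mpc2 (0.53, adjusted p = 7.18e-07), and Pdk4, the kinase that inhibits pyruvate dehydrogenase, fell (-0.61, adjusted p = 1.32e-06). In the branches that leave glycolysis 9 of 19 rose and 4 fell. Taldo1 (0.59, adjusted p = 1.49e-06) and Pgd (0.47, adjusted p = 2.33e-06) of the pentose phosphate pathway rose, and Phgdh, which opens serine synthesis, fell (-1.45, adjusted p = 6.37e-09). Of 15 HIF1 targets outside glycolysis 3 rose and 2 fell, shares near those of all genes, with a median log2 fold change of 0.056. Higd1a (1.02, adjusted p = 4.38e-05) and Adm (0.38, adjusted p = 7.59e-05) rose and Vegfa fell (-0.33, adjusted p = 0.0171), and 6 fell once FI3OE replicate 2 was left out. The call of Vegfa was lost in 6 of 16 alternatives. Of 12 regulators of these genes 3 rose and 7 fell, with Mlx, the partner of the glucose-responsive factor ChREBP, higher (0.55, adjusted p = 1.23e-06) and Prkaa2 of AMP kinase (-0.53, adjusted p = 8.98e-06) and Epas1, which encodes HIF2α (-0.53, adjusted p = 1.54e-05), lower. The main fit of the cultures called 5960 of 16105 genes, and the fit of all 18 libraries 1572 of 17289. The latter called fewer genes in each of these lists. For pyruvate entry 2 were higher and 0 lower, and for the branches 3 and 3. For the HIF1 targets the counts were 1 and 0, and for the regulators 1 and 3. There Pfkfb3 (adjusted p = 0.128), Pdk4 (0.433), Adm (0.678) and Vegfa (0.632) were not called.

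In eWAT TRAP RNA 4 of the 10 enzymes fell in FI3KO and none rose. Pfkl, Pfkp, Aldoa and Eno1 were 0.71 to 0.80 times their WT level, and the FI3KO and WT values of Pfkl, Pfkp and Eno1 did not overlap. The 4 of 10 stand beside 18.3% of all genes tested that were called lower, and the 0 beside 19.1% called higher (37.4% in either direction). At an unadjusted p under 0.05 the counts were also 4 and 0, and DESeq2 gave 4 and 0. Every FI3KO value lay below every WT value in 8.53% of genes and above in 7.47%. No member passed a log2 fold change of 1, by edgeR, by DESeq2 or at an unadjusted p under 0.05, against 6.61% of genes past both cutoffs. The median log2 fold change of the 10 was -0.088, against 0.016 over all genes.

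The lowest, median and highest values over the 6 samples of a group are given in that order. Pfkl was at 91.2, 95.9 and 109.6 CPM in FI3KO and 113, 136 and 139 CPM in WT (log2 fold change -0.39 ± 0.069 SE, edgeR adjusted p = 0.00111). Pfkp was at 32.7, 42.1 and 48.97 CPM in FI3KO and 51.2, 54.5 and 60.9 CPM in WT (log2 fold change -0.39 ± 0.082 SE, edgeR adjusted p = 0.00302). Both isozymes of the committing step were therefore lower in every FI3KO sample than in any WT sample, while Pfkm overlapped (17.4 to 20.8 and 12.02 to 21.4 CPM, log2 fold change 0.21, adjusted p = 0.199). The log2 fold change of Pfkm was -0.16 ± 0.12 SE (adjusted p = 0.387) in replicates 1 and 2 and 0.43 ± 0.083 SE (adjusted p = 0.000912) in replicates 3 to 6 (edgeR interaction 0.59 ± 0.14 SE, adjusted p = 0.0105). Pfkl held 55.0% and Pfkm 16.6% ± 2.22 of the phosphofructokinase TPM in FI3KO.

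Aldoa was at 1020, 1066 and 1270 CPM in FI3KO and 1189, 1644 and 1802 CPM in WT (log2 fold change -0.49 ± 0.11 SE, edgeR adjusted p = 0.00527). FI3KO replicate 2, at 1270 CPM, lay above WT replicates 1 and 2, at 1189 and 1192 CPM, so the groups overlapped. Eno1 was at 465, 506 and 545 CPM in FI3KO and 591, 615 and 688 CPM in WT (log2 fold change -0.32 ± 0.063 SE, edgeR adjusted p = 0.00223), and its highest FI3KO sample was below its lowest WT sample.

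The other 6 members were not called, and their groups overlapped. Hk1 was at 11.1, 12.9 and 13.3 CPM in FI3KO and 11.1, 12.1 and 13.7 CPM in WT (log2 fold change 0.028 ± 0.075 SE, edgeR adjusted p = 0.791). Hk2 was at 169.5, 207 and 244 CPM in FI3KO and 172, 182 and 214 CPM in WT (log2 fold change 0.16 ± 0.083 SE, edgeR adjusted p = 0.156). Gpi1 was at 127, 174 and 198 CPM in FI3KO and 141, 166 and 199 CPM in WT (log2 fold change 0.038 ± 0.10 SE, edgeR adjusted p = 0.794). These 3 enzymes act before phosphofructokinase. Pgk1 was at 117, 128 and 143 CPM in FI3KO and 121, 127 and 131 CPM in WT (log2 fold change 0.055 ± 0.055 SE, edgeR adjusted p = 0.454). Pkm was at 261, 306 and 313 CPM in FI3KO and 286, 291 and 304 CPM in WT (log2 fold change 0.0038 ± 0.056 SE, edgeR adjusted p = 0.964). Ldha was at 645, 810.1 and 916 CPM in FI3KO and 758, 907 and 1082 CPM in WT (log2 fold change -0.18 ± 0.11 SE, edgeR adjusted p = 0.225), with FI3KO replicates 5 and 6 the lowest of the 12.

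**Figure D3:**
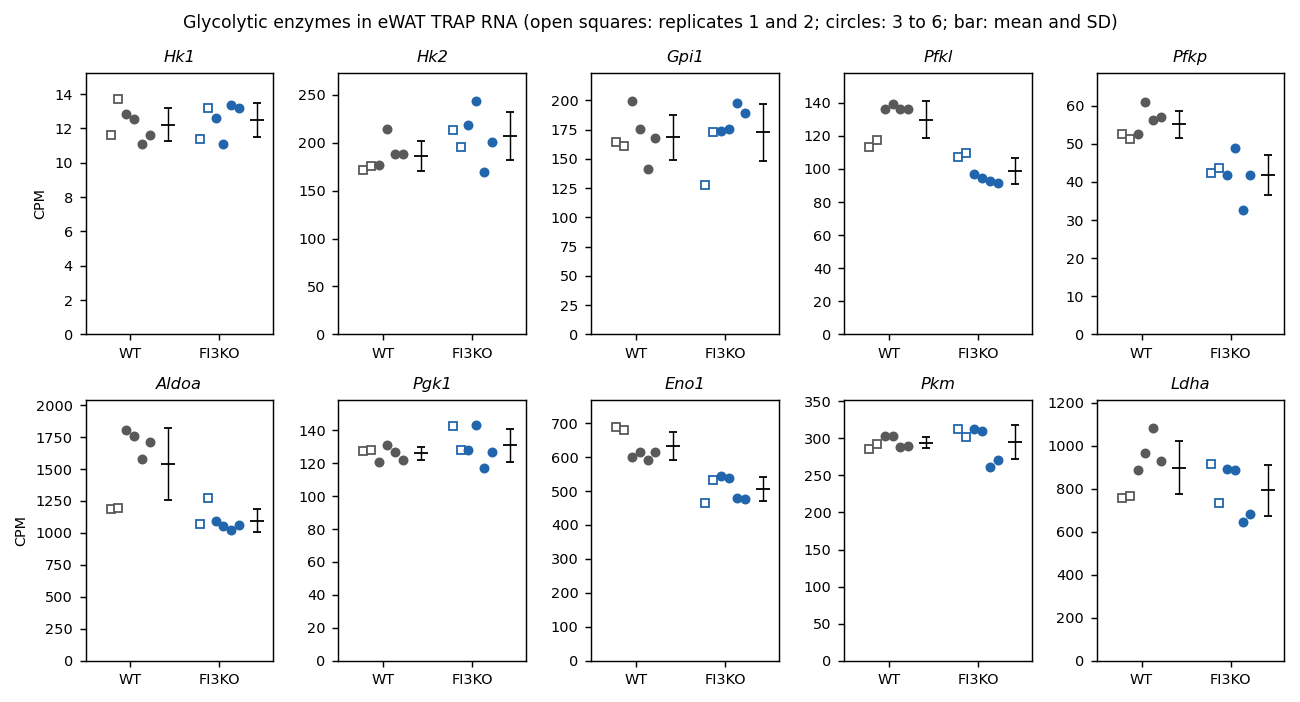
CPM of each of the 10 enzymes in the 6 WT and 6 FI3KO eWAT TRAP samples, from 0, with open squares for replicates 1 and 2, circles for replicates 3 to 6 and a bar for the mean and SD. FI3KO points of Pfkl, Pfkp and Eno1 lie below all WT points, and the WT squares of Aldoa (1189 and 1192 CPM) lie apart from the WT circles (1575 to 1802 CPM).

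The difference between FI3KO and WT was not the same in the 2 sets of replicates for 2 of the 10 enzymes. This interaction was called for 26.5% of all genes, so the share of the enzymes was not above that of all genes. For Aldoa the log2 fold change was -0.027 ± 0.094 SE (adjusted p = 0.876) in replicates 1 and 2 and -0.69 ± 0.067 SE (adjusted p = 3.86e-06) in replicates 3 to 6 (edgeR interaction -0.66 ± 0.12 SE, adjusted p = 0.00145). For Pfkl it was -0.091 ± 0.06 SE (adjusted p = 0.339) in replicates 1 and 2 and -0.54 ± 0.043 SE (adjusted p = 7.57e-07) in replicates 3 to 6 (interaction -0.45 ± 0.074 SE, adjusted p = 0.00103). In both genes WT replicates 1 and 2 lay below WT replicates 3 to 6, at 113 and 117 against 136 to 139 CPM for Pfkl. Eno1 was lower in each set, at -0.46 ± 0.089 SE (adjusted p = 0.017) and -0.25 ± 0.063 SE (adjusted p = 0.00564), and its interaction was not called (adjusted p = 0.183). Pfkp gave -0.27 ± 0.14 SE (adjusted p = 0.221) and -0.45 ± 0.099 SE (adjusted p = 0.00207). Ldha was at 0.11 ± 0.16 SE (adjusted p = 0.685) and -0.31 ± 0.12 SE (adjusted p = 0.0375), and the difference between the sets was not called (adjusted p = 0.137). Fitted alone, replicates 3 to 6 gave 5 members lower (Pfkl, Pfkp, Aldoa, Eno1 and Ldha) and replicates 1 and 2 gave 1, Eno1 (-0.45, adjusted p = 0.0449, with 8.02e-06 to 0.0449 over all alternatives). Of all genes tested, these fits called 6922 of 13692 and 500 of 14040 in either direction.

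Markers of macrophages were mostly lower in FI3KO in this RNA. The counts of all marker lists stand beside 18.3% of all genes called lower and 19.1% called higher. Of 18 macrophage markers 15 were tested, of which 13 fell and 1 rose, and the list summed to 40.3 to 73.5 CPM in FI3KO and 68.6 to 146 CPM in WT. The highest mean of that list was 27 CPM, for Mertk, and no marker of it was at 0 in every sample. Cd68, which was too low to be tested, was at 0.093 to 0.43 CPM in FI3KO and 0.21 to 2.26 CPM in WT. Cd14, the 1 that rose, was at 0.839 to 3.06 CPM in FI3KO and 0.498 to 0.836 CPM in WT. Fibroblast and preadipocyte markers summed to 938 to 1757 and 1437 to 2659 CPM, with 2 of 9 tested lower and 1 higher. Skeletal muscle markers summed to 38.5 to 57.7 and 53.2 to 116 CPM, nearly all of it Acta1, and Ckm and the myosin heavy chains were below 0.2 CPM in every sample. Mesothelial markers summed to 14.2 to 37.7 and 23.8 to 60.6 CPM (1 of 9 tested lower), endothelial markers to 32.1 to 145.5 and 33.3 to 69.0 CPM (1 of 9 higher) and erythrocyte markers to 9.28 to 36.6 and 13.0 to 24.5 CPM (0 of 5 called). The part of these cells in the enzyme differences was not tested.

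Among the other enzymes of the pathway 2 of 12 tested fell in FI3KO and 0 rose, with a median log2 fold change of -0.34. Over all genes 18.3% were called lower and 19.1% higher, so the share that fell was near that of all genes. At an unadjusted p under 0.05, 4 were lower and 0 higher, and DESeq2 called 4 lower and 0 higher. The interaction with the replicate set was called for 6 of the 12, beside 26.5% of all genes. Fitted alone, replicates 3 to 6 gave 4 lower and 1 higher, and replicates 1 and 2 gave 0 and 0. Those fits called 6922 of 13692 and 500 of 14040 of all genes. Tpi1 was at 256, 299 and 378 CPM in FI3KO and 469.8, 637 and 761 CPM in WT (log2 fold change -1.02 ± 0.13 SE, edgeR adjusted p = 0.000192). Its groups did not overlap, and its fall was larger in replicates 3 to 6 (interaction -0.80 ± 0.16 SE, adjusted p = 0.00296). Adpgk fell too, with 28.7 to 37.4 CPM in FI3KO and 36.02 to 47.1 CPM in WT (-0.36, adjusted p = 0.00553). Its log2 fold change was -0.04 ± 0.098 SE (adjusted p = 0.817) in replicates 1 and 2 and -0.51 ± 0.069 SE (adjusted p = 5.88e-05) in replicates 3 to 6 (interaction -0.47 ± 0.12 SE, adjusted p = 0.0128). Gapdh was at 389.6, 597 and 652 CPM in FI3KO and 569, 710.1 and 859 CPM in WT (-0.32, adjusted p = 0.0524), and it passed the threshold in 8 of 26 alternatives (adjusted p = 0.0284 to 0.148 over all). Pgam1 (-0.057, adjusted p = 0.429), Ldhb (0.03, adjusted p = 0.843) and Bpgm (0.081, adjusted p = 0.361) were not called. Hk3, a minor hexokinase here, was too low for the naming rule and was chosen after its values were seen, at 0.09 to 1.68 CPM in FI3KO and 0.74 to 2.78 CPM in WT (-1.37, adjusted p = 0.0836). Its log2 fold change was 0.83 ± 0.46 SE (adjusted p = 0.25) in replicates 1 and 2 and -3.02 ± 0.36 SE (adjusted p = 2.31e-05) in replicates 3 to 6 (interaction -3.85 ± 0.59 SE, adjusted p = 0.000664).

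The counts of the further lists stand beside 19.1% of all genes higher and 18.3% lower. Of 6 tested genes that control the phosphofructokinase step 3 fell and 1 rose in FI3KO. Pfkfb4, one of the kinase-phosphatases that set fructose 2,6-bisphosphate, fell, with 25.4 to 43.7 CPM in FI3KO and 57.3 to 73.6 CPM in WT (-0.93, adjusted p = 0.000165). Its log2 fold change was -0.55 ± 0.14 SE (adjusted p = 0.0395) in replicates 1 and 2 and -1.13 ± 0.099 SE (adjusted p = 1.79e-06) in replicates 3 to 6 (interaction -0.58 ± 0.17 SE, adjusted p = 0.0264). Tigar, which hydrolyses that compound, fell (-0.46, adjusted p = 0.000833) and Pfkfb1 rose (0.32, adjusted p = 0.0235), a call lost in 7 of 26 alternatives. The other gene that fell, Fbp2, encodes a fructose bisphosphatase that reverses the phosphofructokinase step. It was too low for the naming rule and was chosen after its values were seen. Fbp2 was at 0.65 to 1.13 CPM in FI3KO and 1.30 to 2.08 CPM in WT, without overlap (log2 fold change -1.11 ± 0.19 SE, edgeR adjusted p = 0.000908). In replicates 1 and 2 alone 0 of the 6 genes rose and 0 fell by edgeR, and in replicates 3 to 6 alone 2 rose and 3 fell. Among all genes these fits called 500 of 14040 and 6922 of 13692. The interaction was called for 2 of the 6, Pfkfb4 and Pfkfb3. Pfkfb3 was the most abundant of the list and was also named after its values were seen, at 1609 to 2146 CPM in FI3KO and 1104 to 2002 CPM in WT (0.31, adjusted p = 0.121). Its log2 fold change was -0.26 ± 0.11 SE (adjusted p = 0.133) in replicates 1 and 2 and 0.65 ± 0.075 SE (adjusted p = 1.77e-05) in replicates 3 to 6 (interaction 0.91 ± 0.13 SE, adjusted p = 0.000416). Among 8 transporters 1 rose and 2 fell, with Slc2a3 higher (1.33, adjusted p = 0.000725) and Slc2a1 (GLUT1, -0.41, adjusted p = 0.00277) and the lactate carrier Slc16a1 (-0.26, adjusted p = 0.0243) lower. The log2 fold change of Slc2a3 was 0.62 ± 0.20 SE (adjusted p = 0.0754) in replicates 1 and 2 and 1.79 ± 0.15 SE (adjusted p = 9.98e-07) in replicates 3 to 6 (interaction 1.16 ± 0.24 SE, adjusted p = 0.00479). For Slc2a1 it was -0.16 ± 0.12 SE (adjusted p = 0.378) and -0.53 ± 0.082 SE (adjusted p = 0.000176), and the interaction was not called (adjusted p = 0.0751). The call of Slc16a1 was lost with the same direction in 5 of 26 alternatives, and in replicates 1 and 2 alone it was at 0.0034. Of 14 genes for the entry of pyruvate into mitochondria 7 rose and 0 fell, with a median log2 fold change of 0.24. At an unadjusted p under 0.05, 8 were higher and 0 lower, and DESeq2 called 7 and 0. Among them were Pdp2, a phosphatase that activates pyruvate dehydrogenase (0.42, adjusted p = 0.0025), its subunit gene Pdha1 (0.30, adjusted p = 0.00464) and Pdk1, a kinase that inhibits it (0.36, adjusted p = 0.00292). In replicates 1 and 2 alone Pdp2 was at 0.20, Pdha1 at 0.12 and Pdk1 at 0.18. The values in replicates 3 to 6 alone were 0.53, 0.395 and 0.46. In the branches 7 of 19 rose and 3 fell, with Pygl and Ugp2 of glycogen metabolism higher (0.57, adjusted p = 0.000276 and 0.45, adjusted p = 0.00123) and Gpd1, which makes glycerol 3-phosphate, lower (-0.59, adjusted p = 0.00132). In replicates 1 and 2 alone Pygl was at 0.26, Ugp2 at 0.19 and Gpd1 at -0.335. The values in replicates 3 to 6 alone were 0.73, 0.57 and -0.71. Of 13 HIF1 targets outside glycolysis 3 rose and 3 fell, shares near those of all genes, among them Egln1 (0.45, adjusted p = 0.000551), Mxi1 (0.31, adjusted p = 0.0212) and P4ha2 (-0.71, adjusted p = 0.000882). The interaction with the replicate set was called for 9 of the 13. Replicates 3 to 6 alone gave 6 higher and 4 lower, where 6922 of 13692 genes were called and P4ha2 was at -0.88. Replicates 1 and 2 alone gave 0 and 1, where 500 of 14040 genes were called, Mxi1 was at -0.075 and P4ha2 at -0.29. The call of Mxi1 was lost with the same direction in 7 of 26 alternatives. The interaction was called for 5 of the 8 transporters, 4 of the 14 genes of pyruvate entry, 9 of the 19 of the branches and 4 of the 12 regulators, beside 26.5% of all genes. Replicates 1 and 2 alone, with 500 of 14040 of all genes called, gave 1 gene of pyruvate entry higher and no gene of the branches called. Of 12 regulators 2 rose and 3 fell, with Hif1a (-0.67, adjusted p = 0.000856) and Mlx (-0.39, adjusted p = 0.0186) lower and Prkaa1 (0.46, adjusted p = 0.00342) higher. The log2 fold change of Prkaa1 was 0.034 ± 0.084 SE (adjusted p = 0.818) in replicates 1 and 2 and 0.65 ± 0.059 SE (adjusted p = 2.28e-06) in replicates 3 to 6 (interaction 0.62 ± 0.10 SE, adjusted p = 0.00108).

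Side by side, Pfkl, Aldoa and Eno1 were higher with active IRF3 in culture and lower in FI3KO TRAP RNA. In the fit of TRAP replicates 1 and 2 alone, Eno1 was called and Pfkl and Aldoa were not. In the cultures the calls of Pfkl and Eno1 were lost with robust dispersion estimates. That of Aldoa was lost in the fit of all 18 libraries. Hk1, Pkm and Ldha were called in FI3OE cells alone and Pfkp in FI3KO alone, and whether the changes differ between the experiments was not tested. Hk2, Gpi1 and Pgk1 were called in neither. The experiments share no libraries.

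**Figure D4:**
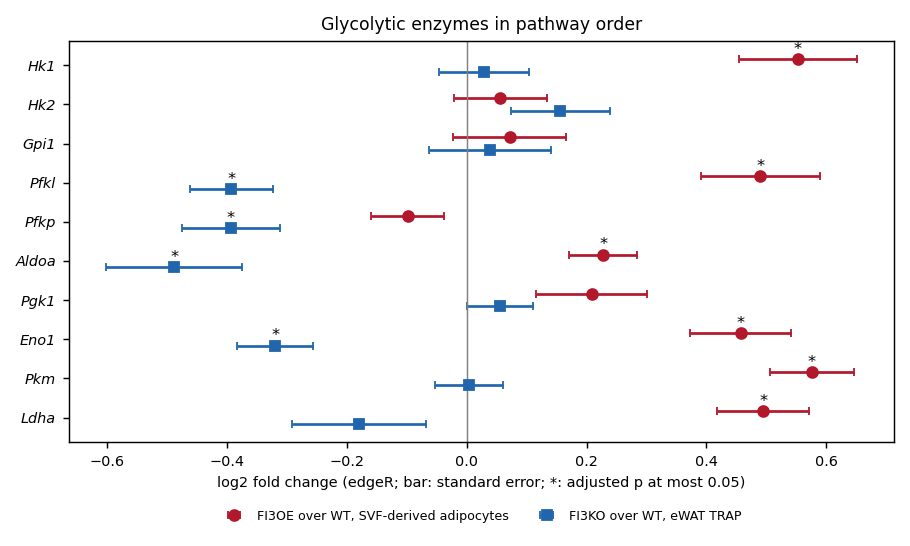
Log2 fold change of each enzyme in pathway order, with circles for FI3OE over WT in SVF-derived adipocytes and squares for FI3KO over WT in eWAT TRAP RNA, bars for the standard error from edgeR and asterisks for an adjusted p of at most 0.05. Pfkl, Aldoa and Eno1 carry asterisks on both sides of 0, at 0.49, 0.23 and 0.46 in FI3OE and -0.39, -0.49 and -0.32 in FI3KO.

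The Pkm gene yields 2 forms of pyruvate kinase by including either the M1 or the M2 exon. M2 is known as the form of growing cells and M1 as the form of muscle and other differentiated tissue. The M1 exon lies at chr9:59675029-59675195 and the M2 exon at chr9:59675568-59675734 (GRCm38, plus strand), each 167 bases long. They are shown because they tell the 2 forms apart, while the levels below are those of whole transcripts. Capitals mark the 64 positions at which they differ, which leaves 103 equal bases (61.7%).
M1 exon: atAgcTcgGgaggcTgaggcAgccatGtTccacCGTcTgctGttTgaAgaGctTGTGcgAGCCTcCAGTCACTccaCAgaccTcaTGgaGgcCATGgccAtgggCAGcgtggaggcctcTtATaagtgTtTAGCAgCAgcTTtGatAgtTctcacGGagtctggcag
M2 exon: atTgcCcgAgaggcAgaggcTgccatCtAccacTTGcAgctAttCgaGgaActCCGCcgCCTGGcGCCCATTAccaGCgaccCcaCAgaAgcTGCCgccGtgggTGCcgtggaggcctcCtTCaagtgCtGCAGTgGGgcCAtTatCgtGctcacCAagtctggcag
Of the Pkm reads, 96.93% to 99.95% per library were assigned to the transcript with either exon. The M1 share of their TPM was 33.3%, 32.7% and 33.4% in FI3OE and 27.7%, 28.6% and 27.9% in WT cultures. Every FI3OE culture lay above every WT culture, with means of 33.1% ± 0.366 and 28.1% ± 0.454 (SD, n = 3). The difference of 5.07 percentage points had an exact two-sided permutation p of 0.1, the smallest that 3 against 3 libraries can give. In TRAP RNA the share had a lowest and highest value of 19.8% and 27.4% in FI3KO and 26.1% and 29.3% in WT. The means were 23.6% ± 3.03 and 27.6% ± 1.29 (SD, n = 6), a difference of -3.96 percentage points (exact permutation p = 0.0152). The groups overlapped through replicates 1 and 2, where FI3KO was at 26.3% and 27.4% and WT at 26.1% and 26.2%. Within replicates 3 to 6 the difference was -6.29 points (exact permutation p = 0.0286, the smallest for 4 against 4), and within replicates 1 and 2 it was 0.701 points (exact permutation p = 0.333, the smallest for 2 against 2). In both experiments M2 was the more abundant form in every library. Salmon divides shared reads between transcripts, so the share is an estimate.

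**Figure D5:**
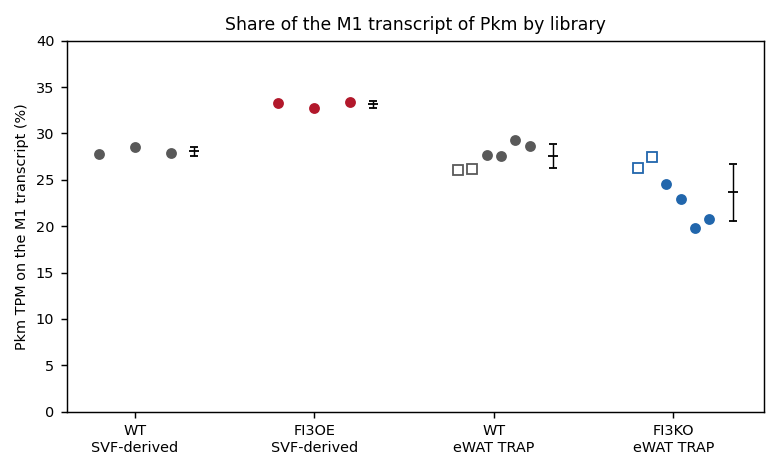
M1 share of Pkm TPM in percent, from 0, for every library of the 4 groups, with open squares for TRAP replicates 1 and 2 and bars for the mean and SD. FI3OE cultures (32.7% to 33.4%) lie above WT cultures (27.7% to 28.6%), and FI3KO samples 3 to 6 (19.8% to 24.6%) lie below all WT TRAP samples.

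Across the 12 TRAP samples the enzymes did not vary as a block. The pair with the highest Pearson correlation of log2 CPM was Pfkl and Aldoa (r = 0.94), followed by Pfkl and Pfkp (0.83) and Hk2 and Pgk1 (0.785), and the lowest was Hk1 with Ldha (-0.675). Of 4872 other genes whose log2 CPM averaged 5 or more, those most like the mean of the 10 members were Alcam (0.947), Ppp4r1 (0.927), Tet3 (0.925), Tbl2 (0.921) and Itprid2 (0.913). These values describe 12 samples that share genotype and replicate set, and carry no test.

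Reads of the near copies of Aldoa and Eno1 bear little on these counts. The retrogenes and second loci of Aldoa and Eno1 held at most 74 reads in a library, at most 0.162% of the parent gene. Pfkp shares sequence with its neighbour Pitrm1, which held 863 to 2517 reads, and the effect of these reads on Pfkp was not tested. The library kit does not mark strand, so reads of an antisense gene such as Hk1os (0 to 8 reads) cannot be told from those of Hk1.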

How the data were processed

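Per the labels and the study's methods, the authors depleted ribosomal RNA, made libraries with Nextera XT, trimmed reads with fastp and quantified them with Salmon 1.4.0 (selective alignment, sequence and GC bias correction) on a GENCODE annotation of GRCm38. The deposited files give, per transcript, an estimated count of reads, TPM (length-scaled) and an effective length. Transcripts were matched to genes through another GENCODE release (117850 of 118733 transcripts matched, and the 883 unmatched held 0.375% to 1.08% of reads), and estimated counts were summed per gene and rounded. Each experiment was fitted on its own with edgeR 4.0.16 in R 4.3.3 (filterByExpr, TMM, glmQLFit and glmQLFTest), with Benjamini-Hochberg adjustment over all genes tested. The SE is the fold change over the root of its F value. On simulated data the fit recovered, in the FI3OE design, 61% of genes changed by 0.5 on the log2 scale and 91% at 1.5 (16105 genes), and in the TRAP design 54% and 91% (13624 genes). TPM was summed per gene for levels and shares.

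Depth was 21541334 to 36932452 estimated reads in the SVF-derived and 25259869 to 40490283 in the TRAP libraries. The members and all lists (7 pathway lists of 97 genes, 7 marker lists) were chosen with earlier results of these data known. Named were Irf3, all 10 members, every other glycolytic enzyme tested whose log2 CPM averaged 1 or more (1 of these is not reported here), the 3 genes of each further list with the smallest adjusted p among those at this level, and the 5 genes most like the members in pattern. Alternatives were other scalings and filters, DESeq2 1.42.0, a length offset, robust dispersions, all 18 libraries in 1 fit, a replicate block, copies added to the member, each library left out, and the TRAP replicate sets. After the data were seen, TRAP WT replicates 1 and 2 were also summed as 1 library.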

Additional observations from a re-analysis of the deposited data

Results flagged for a closer look

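In groups of 6 TRAP samples, a sample far from the other 5 was found in 4 of the 74 groups looked at, where chance gives about 3.7. Gpi1 was at 127.3 CPM in FI3KO replicate 1 and at 173.2 to 197.8 CPM in the other FI3KO samples. Gapdh was at 389.6 CPM in that replicate and at 561.7 to 651.6 CPM in the others. Aldoa was at 1270 CPM in FI3KO replicate 2 and at 1020 to 1097 CPM in the others, and Tpi1 at 378.5 CPM in that replicate and at 256.1 to 301.8 CPM in the others.

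The log2 fold change of FI3KO over WT differed between replicates 3 to 6 and replicates 1 and 2 by -0.45 for Pfkl (edgeR interaction, adjusted p = 0.00103) and by -0.66 for Aldoa (adjusted p = 0.00145). This interaction was called for 26.5% of all genes, and no label names these sets of replicates.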

How the results depend on the processing

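The count of 6 members higher in FI3OE cells was 3 with robust dispersion estimates and 6 to 7 when each library was left out, and the count lower was 0 to 1, the 1 being Pfkp without FI3OE replicate 2. In TRAP RNA 4 members stayed lower when any library was left out, and 1 was lower in replicates 1 and 2 alone (n = 2 per group). The same 4 were called under every other alternative, and 2 members had a called interaction in all 14 alternatives run for it. In the main fit the interaction was called for 26.5% of all genes. In replicates 1 and 2 the fit with the interaction gave -0.027 for Aldoa, -0.091 for Pfkl and -0.27 for Pfkp. The fit of replicates 1 and 2 alone called 500 of 14040 genes. The M1 share of Pkm differed by 4.83 to 5.33 points in the cultures and by -4.72 to -3.18 points in TRAP RNA. The TRAP range leaves out the replicate sets, which gave 0.701 points in replicates 1 and 2 and -6.29 in replicates 3 to 6. The summed level in WT was 5753 (cultures) and 3152 (TRAP) as RPKM computed from the estimated reads, which lacks the scaling of TPM. The median of all genes moved by less than 0.1 on the log2 scale under each scaling.

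Irf3 in TRAP RNA, whose log2 fold change was below 0, was 0.71 with the length offset. The called Mxi1 and Slc16a1 and the uncalled Pfkm and Ldha changed sign in replicates 1 and 2 alone, and most other values that changed sign were near 0. The cause was not tested. With each culture left out in turn the log2 fold change ran from -0.0623 to 0.12 for Hk2, -0.0793 to 0.18 for Gpi1, -0.0641 to 0.17 for Aldoc and -0.0306 to 0.16 for Bpgm, and Hk2 was -0.0319 with the length offset. With library totals only, FI3KO over WT was -0.0179 for Hk1, -0.0079 for Gpi1, -0.0437 for Pkm and -0.0138 for Ldhb. In replicates 1 and 2 alone it was -0.0331 for Hk1, -0.11 for Gpi1, 0.12 for Ldha, -0.15 for Pfkm, -0.23 for Ldhb, 0.0034 for Slc16a1 and -0.0746 for Mxi1. Pkm was -0.0033 with DESeq2 size factors, -0.0011 with DESeq2, -0.0124 with at least 10 counts in every library, -0.0253 with the length offset, -0.004 in the fit of all 18 libraries, -0.0365 in replicates 3 to 6 and -0.0096 with WT replicates 1 and 2 summed. With each TRAP library left out in turn the values ran from -2e-04 to 0.062 for Hk1, -0.0123 to 0.10 for Gpi1, -0.0214 to 0.0285 for Pkm and -0.0303 to 0.0899 for Ldhb, and the interaction from -0.0172 to 0.22 for Hk1 and -0.12 to 0.0479 for Pgk1, which was 0.0302 with no filter.

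Same-numbered libraries correlated at -0.046 to 0.015 in the cultures and -0.293 to 0.104 in TRAP RNA, and 1 of 3 and 0 of 6 numbers matched best. No pairing by replicate number was seen, but these values cannot exclude it, since a weak pairing could be hidden by counting noise. With the replicate block 5658 genes were called in the cultures (5960 without) and 3632 in TRAP RNA (5095 without), and the members' calls were the same.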
